A study of Ambystoma mexicanum with 44 samples.

Results

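The comparison described here follows a healing skin wound of the axolotl (Ambystoma mexicanum) from day 1 to day 3 after injury. Its members are the 8 arrays labelled as flank wound at day 1 and at day 3, 4 for each day, out of 44 arrays in the series, and all 20035 probe sets that are not controls were compared between them. Aquatic axolotls, housed singly in Holtfreter's solution, received a 4 mm biopsy punch wound in the side of the body. The tissue taken was epidermis with its adhering cells. RNA of each replicate came from 2 pooled harvests of the same animal, and every group held 4 biological replicates. The flank also had uninjured samples (day 0) and samples of day 7. The groups set beside it came from forelimbs cut just proximal to the elbow with the humerus trimmed flush, which kept their nerves (innervated limb) or had the brachial nerves transected (denervated limb), at days 1 and 3. No strain, genotype, sex or age is given in the labels used here, and the limb groups and the flank groups share no array. Values are log2 expression levels as deposited, between 2.41 and 15.04, and differences are day 3 minus day 1 with their standard error.

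Salamander skin closes a wound by the migration of epidermal cells over a provisional matrix of plasma and cell derived proteins, after which the new epidermis thickens. Neutrophils and other phagocytes enter early, and macrophages, which clear debris and are needed for healing and regeneration in salamanders, follow. The passage from day 1 to day 3 lies between the covering of the wound and the building of new matrix beneath it, and it addresses which transcripts of the early response are withdrawn and which come up in their place.

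Between day 1 and day 3, 2820 probe sets rose (14.1% of those tested) and 2425 fell (12.1%), in total 5245 or 26.2%, at a Benjamini-Hochberg adjusted p under 0.05 in limma. A difference of at least 1 on the log2 scale, a 2-fold change, was reached by 527 of those that rose and 452 of those that fell. The 4 values of one day did not overlap the 4 of the other, in either direction, for 4688 probe sets or 23.4%. Counted over 8639 named genes with 1 probe set each, 1457 rose (16.9%) and 1139 fell (13.2%), and the median difference was −0.0125. Arrays of the same day correlated at 0.98 to 0.993 over all probe sets and arrays of different days at 0.97 to 0.982. On the first component of the 16 flank arrays (37.2% of the variance) the day 1 arrays lay between 38.8 and 42.8 and the day 3 arrays between 11.5 and 20.1, with day 0 between −67.3 and −52.5. On the second component (25.2%) day 1 lay between 32.1 and 44.5 and day 3 between −17.7 and −7.9. Day 0 lay there between 12.3 and 22.5 and day 7 between −47.3 and −39.7. The day 1 array of replicate 4 held the outlying value of its group most often among the genes and lists described here, and 4971 probe sets were called without it.

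**Figure D1:**
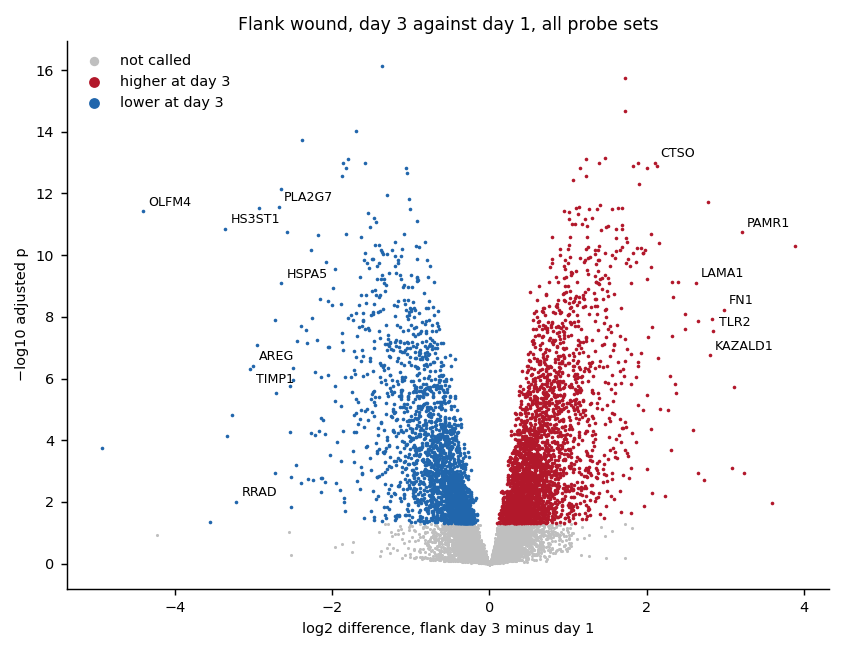
Each point is a probe set, with the log2 difference of flank day 3 minus day 1 on the horizontal axis and −log10 of the adjusted p on the vertical axis. Red points (2820) were higher at day 3, blue points (2425) were lower at day 3 and grey points were not called. OLFM4 lies at −4.41 and PAMR1 at 3.21.

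The samples carried the markers of epidermis. EPCAM and CDH1, adhesion proteins of epithelial cells, lay between 13.03 and 13.88 and between 12.38 and 12.98 over the 8 arrays, and the desmosome protein DSP between 13.15 and 13.50. KRT8, a simple epithelial keratin, lay between 13.88 and 14.11, although another of its probe sets fell by 2.46, so its level is uncertain. Markers of endothelium (CDH5 3.68 to 4.13, KDR 4.43 to 4.81), of pigment cells (TYR 3.98 to 4.29, DCT 2.94 to 3.26) were near the low end of the deposited values. Those of dermal fibroblasts were divided, with PDGFRA (3.66 to 4.23) and PRRX1 (4.09 to 4.54) low, DCN (7.13 to 7.96) and LUM (7.02 to 8.93) higher, and the collagens COL1A1 (11.32 to 12.87) and COL1A2 (11.27 to 12.09) high on that scale. Phagocyte markers (CD68 6.44 to 8.41, CYBB 8.92 to 10.61) and muscle markers (CKM 8.13 to 11.32) were not. In these mixed samples, fewer cells of a type and less RNA per cell cannot be told apart.

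Several of the larger rises were in genes of secreted matrix proteins. Genes of the largest rises and falls were chosen among those without overlap between the days, so their separation follows from that choice. PAMR1, a secreted protein with a peptidase-like domain, read 5.86, 5.27, 5.77 and 5.04 in the day 1 arrays and 8.65, 8.36, 8.81 and 8.97 in the day 3 arrays. All 4 day 3 arrays were above all 4 day 1 arrays, and the rise was 3.21 ± 0.27 (9.27-fold, adjusted p = 1.79e-11, n = 4 arrays a day). Fibronectin (FN1), the adhesive glycoprotein of the provisional matrix, read 6.99, 6.99, 6.81 and 6.54 at day 1 and 9.08, 10.32, 9.96 and 9.90 at day 3. The days were again separate, and FN1 rose by 2.98 ± 0.33 (adjusted p = 5.8e-09), while a dimmer FN1 probe set moved by 0.27 and was not called. KAZALD1, a secreted protein related to the insulin-like growth factor binding proteins, rose by 2.80 ± 0.37 from 4.85–6.17 to 7.94–9.15 (adjusted p = 1.74e-07).

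Of 33 measured genes of the provisional matrix and its matricellular proteins, 9 rose (27.3%, against 16.9% of all named genes) and 5 fell (15.2%, near the 13.2% of all named genes). The median difference was 0.3, and it was 0.161 with the mean over all probe sets of a gene and 0.525 without the dimmest probe sets. TGFBI, an adhesion protein induced by TGF-beta, rose by 1.96 ± 0.18, the microfibril protein FBN2 by 1.75 ± 0.36 and thrombospondin 2 (THBS2) by 1.05 ± 0.28. Thrombospondin 1 (THBS1), a related protein released early in wounds, went the other way. It read 9.46, 9.13, 9.06 and 9.82 at day 1 and 7.52, 7.75, 8.10 and 7.87 at day 3, a fall of 1.56 ± 0.26 without overlap (adjusted p = 9.5e-06). The 5 falls of this list became 2 without day 1 replicate 2, 3 without day 3 replicate 1 and 1 without day 3 replicate 3.

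The laminin alpha 1 chain (LAMA1), a building block of the basement membrane, read 4.14, 3.90, 3.83 and 3.6 at day 1 and 6.49, 6.66, 6.46 and 6.36 at day 3. The arrays of each day lay close together and far from those of the other day, with a rise of 2.62 ± 0.26 (adjusted p = 7.85e-10), although a second, dim probe set showed −0.03 and was not called. The laminin chain LAMB1 rose by 2.17 ± 0.36 and COL7A1, the collagen of anchoring fibrils, by 1.36 ± 0.22. COL17A1, a collagen that spans the membrane at hemidesmosomes, rose by 0.53 ± 0.11. In all 7 of 28 measured genes of the basement membrane and hemidesmosome rose (25%, against 16.9% of all named genes) and 4 fell (14.3%, near 13.2%). The other 17 were not called, among them COL4A1, COL4A2, LAMC1, LAMA3, LAMA5 and ITGB4. The rises were 4 without day 1 replicate 2 or without day 3 replicate 1, and the median was 0.0638.

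Interstitial collagens and their processing enzymes had 9 of 34 genes up (26.5%, against 16.9% of all named genes) and 2 down (5.88%, against 13.2%). The median was 0.225, and it was 0.101 without day 1 replicate 1 and 0.0996 without day 3 replicate 2. COL3A1, a fibrillar collagen of young connective tissue, read 12.47, 12.47, 12.80 and 12.34 at day 1 and 13.55, 13.89, 13.88 and 13.85 at day 3, and rose by 1.27 ± 0.23. COL11A1 rose by 0.73 ± 0.18, the collagen prolyl hydroxylases P4HA1 and P4HA2 by 0.87 ± 0.22 and 0.95 ± 0.20, and the procollagen processing protease TLL1 by 1.36 ± 0.33. PCOLCE2, an enhancer of procollagen processing, fell by 1.27 ± 0.25. COL1A1, the main fibrillar collagen of dermis, was not called (0.73 ± 0.37, adjusted p = 0.163), and its values of the days overlapped, at 11.32 to 12.50 and 12.31 to 12.87. With array weights in limma COL1A1 was called as a rise (0.873, adjusted p = 0.0472). The beta 5 integrin subunit ITGB5, a receptor for matrix proteins, read 8.32, 8.22, 8.19 and 8.14 at day 1 and 9.57, 9.33, 9.68 and 9.36 at day 3, and rose by 1.27 ± 0.10 (adjusted p = 3.26e-12).

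Among proteases and their inhibitors, 2 of 26 rose (7.69%, against 16.9% of all named genes) and 5 fell (19.2%, against 13.2%). The median was −0.0675. TIMP1, an inhibitor of matrix metalloproteinases, read 12.95, 13.27, 13.22 and 13.25 at day 1 and 9.70, 10.18, 10.78 and 9.87 at day 3. The day 1 arrays were all above the day 3 arrays, and TIMP1 fell by 3.04 ± 0.42 (8.22-fold, adjusted p = 4.78e-07). MMP28, a metalloproteinase of the epidermis (epilysin), fell by 2.30 ± 0.56 from 7.64–8.81 to 4.82–6.46. The membrane metalloproteinase MMP14 rose by 0.69 ± 0.18 and the lysosomal protease CTSB by 0.69 ± 0.09. CTSO, a lysosomal cysteine protease outside this list, rose by 2.11 ± 0.14 and had an adjusted p of 1.02e-13.

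**Figure D2:**
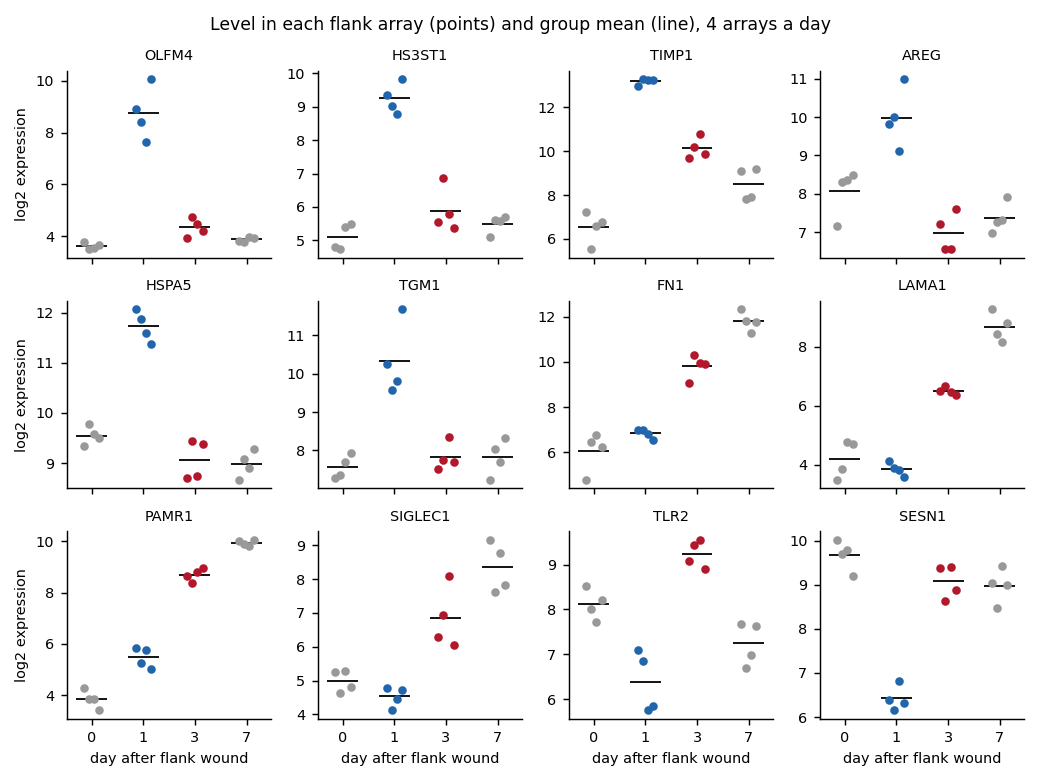
Log2 expression of 12 genes in each flank array (points, 4 a day) with the group mean as a line, against the day after wounding. Day 1 is blue, day 3 red, and days 0 and 7 are grey. OLFM4, HS3ST1, TIMP1, AREG, HSPA5 and TGM1 are lower at day 3 than at day 1 in every array, and the other 6 genes are higher.

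Among the larger falls were genes of secreted and signalling proteins. OLFM4, a secreted glycoprotein of epithelia and neutrophils, read 8.89, 8.40, 7.64 and 10.06 at day 1 and 3.92, 4.75, 4.48 and 4.19 at day 3. The days were separated by a wide gap and the fall was 4.41 ± 0.35 (21.3-fold, adjusted p = 3.78e-12). HS3ST1, which adds a sulphate to heparan sulphate chains, read 9.35, 9.03, 8.79 and 9.83 at day 1 and 5.55, 6.86, 5.78 and 5.36 at day 3, and fell by 3.36 ± 0.28. PLA2G7, which inactivates the lipid mediator platelet-activating factor, fell by 2.68 ± 0.21 (a dimmer probe set showed −0.09 and was not called) and the fibrinogen-like protein FGL2 by 2.33 ± 0.28. Neuropeptide Y (NPY) fell by 2.45 ± 0.30, from 7.64–8.95 to 4.86–6.26. The small GTPase RRAD fell by 3.22 ± 0.95, with day 1 values of 5.57, 7.59, 6.29 and 9.28, and was not called without day 1 replicate 4 (−2.52, adjusted p = 0.0612).

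Ligands and receptors of growth factor signalling were among the genes that fell. Of 34 genes of EGF, FGF and HGF signalling, 10 fell (29.4%, against 13.2% of all named genes) and 1 rose (2.94%, against 16.9%). The other 23 were not called, among them FGF1, FGF2, FGF8, FGF9, FGF10, FGFR1, FGFR2, FGFR3, FGFR4, HGF, EGF and BTC. The median was −0.246. Amphiregulin (AREG), a ligand of the EGF receptor that epidermal cells release on injury, read 9.81, 10, 9.12 and 10.99 at day 1 and 7.22, 6.55, 6.55 and 7.59 at day 3. Every day 3 array was below every day 1 array, and the fall was 3.00 ± 0.41 (adjusted p = 3.82e-07). Epiregulin (EREG), another such ligand, fell by 1.72 ± 0.24 and the receptor EGFR by 1.37 ± 0.13, from 9.70–10.28 to 8.36–8.74. VEGFC, a growth factor for lymphatic vessels, fell by 1.46 ± 0.18. The insulin-like growth factor binding proteins diverged, with IGFBP3 down by 2.54 ± 0.38 and IGFBP5 up by 1.60 ± 0.34.

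TGF-beta and BMP signalling, which directs matrix production and epidermal migration, had 8 genes up and 10 down of 38 (median −0.102). These were 21.1% and 26.3%, against 16.9% and 13.2% of all named genes. PMEPA1, a TGF-beta target that brakes the pathway, read 8.46, 8.36, 8.52 and 8.46 at day 1 and 6.55, 6.69, 7.05 and 6.48 at day 3. It fell by 1.76 ± 0.20 without overlap (adjusted p = 8.82e-09), and a second probe set fell by 1.29. SKIL, a repressor of SMAD transcription factors, fell by 1.58 ± 0.14, the ligand BMP2 by 1.19 ± 0.15 and the receptor BMPR2 by 1.35 ± 0.12. SMAD4, the SMAD shared by both branches, rose by 0.68 ± 0.09, beside the rise of TGFBI given above.

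Of 32 immediate early and stress transcription factors, 7 fell (21.9%, against 13.2% of all named genes) and 2 rose (6.25%, against 16.9%). The other 23 were not called, among them FOS, JUN, JUND, EGR1, ATF4, DDIT3, KLF2, KLF6 and KLF10. The median was −0.275. GADD45A, a stress-induced brake on the cell cycle, fell by 0.92 ± 0.13, and HMGA2, a chromatin protein of embryonic and proliferating cells, by 1.40 ± 0.22. SALL4, a zinc finger factor of stem cells and regenerating limbs, rose from 7.27, 7.37, 7.28 and 6.98 at day 1 to 8.83, 8.84, 9.31 and 9.07 at day 3. Its days were far apart, with a rise of 1.79 ± 0.17 (adjusted p = 2.2e-10), while a dimmer SALL4 probe set showed 0.02 and was not called. FOXC1, a forkhead transcription factor outside this list, fell by 2.71 ± 0.42 from 7.27–9.0 to 4.64–6.24.

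DNA replication had the largest share of rises of any list with at least 5 measured genes. Of 57 measured, 33 rose (57.9%, against 16.9% of all named genes) and 2 fell, and the median difference was 0.647. POLD2, a subunit of the replicative DNA polymerase delta, read 7.68, 7.46, 7.51 and 7.48 at day 1 and 8.76, 8.47, 8.65 and 8.84 at day 3, a rise of 1.15 ± 0.08 (adjusted p = 1.54e-13). The days were separate, as they were for the clamp loader subunits RFC1 (up by 1.74 ± 0.15) and RFC4 (up by 1.24 ± 0.10), for POLA2 of the primase complex (2.0 ± 0.31), for the maintenance DNA methyltransferase DNMT1 (1.36 ± 0.14) and for the chromatin assembly factor CHAF1A (1.72 ± 0.24). Outside the list, DSCC1, which loads the sliding clamp during sister chromatid cohesion, rose by 2.02 ± 0.25, the checkpoint kinase ATR by 1.96 ± 0.18, and PSIP1, a chromatin-binding coactivator, by 1.90 ± 0.14.

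Mitosis genes had 22 of 59 up (37.3%, against 16.9% of all named genes) and 1 down (1.69%, against 13.2%), with a median of 0.482. The other 36 were not called, among them CCNA2, CCNB1, AURKA, BUB1, BUB1B, CDC20, FOXM1, BIRC5 and KIF11. The condensin subunit SMC2, which compacts mitotic chromosomes, read 5.71, 5.35, 5.05 and 6.48 at day 1 and 8.0, 6.96, 7.52 and 9.20 at day 3, and rose by 2.27 ± 0.38 (adjusted p = 1.01e-05). Its partner SMC4 rose by 1.57 ± 0.25. Outside the list, the condensin II subunit NCAPD3 rose by 2.37 ± 0.35 and SMC6, of a complex for DNA repair, by 2.08 ± 0.24. The proliferation marker MKI67 read 8.60, 8.65, 8.17 and 8.47 at day 1 and 9.58, 9.48, 9.41 and 10.10 at day 3, a rise of 1.17 ± 0.17 without overlap. CDCA8, of the chromosomal passenger complex, rose by 1.26 ± 0.29.

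Day 3 replicate 4 was the highest array for both of these lists. Its mean over the mitosis genes was 7.77, against 6.82, 6.74 and 6.73 in the other day 3 arrays and 6.71, 6.42, 5.88 and 6.85 at day 1. The ranges of the 2 days therefore overlapped in this mean. Without that array 10 mitosis genes rose, without day 1 replicate 3, the lowest, 11 did, and with the 8 arrays fitted alone 7 did. For DNA replication the means were 7.37, 7.21, 7.05 and 7.19 at day 1 and 7.93, 7.52, 7.63 and 8.30 at day 3, without overlap. There 22 genes rose without day 3 replicate 4, the fewest with any array left out, and 21 with the 8 arrays fitted alone. The 2 falls were lost without day 3 replicate 1, without day 3 replicate 2 and with the 8 arrays alone. The mitosis list averaged 7.37 in uninjured flank (day 0), 6.46 at day 1 and 7.01 at day 3. For DNA replication these means were 7.72, 7.21 and 7.84. Both lists thus rose from a day 1 mean below that of uninjured flank, and day 3 against day 0 was not tested.

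**Figure D3:**
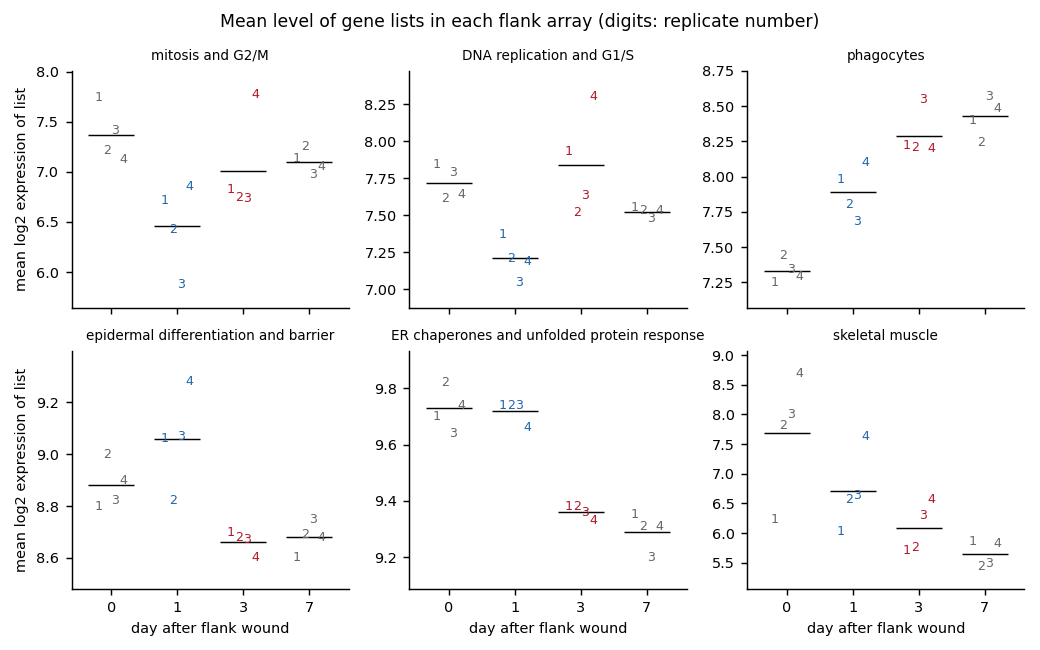
Mean log2 expression of 6 gene lists in each flank array against the day after wounding, with digits giving the replicate number and lines the group mean of 4 arrays. Replicate 4 stands above the other day 3 arrays for mitosis (7.77), and endoplasmic reticulum (ER) chaperones fall from 9.66–9.74 at day 1 to 9.33–9.38 at day 3.

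Of 29 measured phagocyte genes 11 rose (37.9%, against 16.9% of all named genes) and 3 fell (10.3%, against 13.2%), with a median of 0.497, and the mean over the list lay between 7.68 and 8.10 at day 1 and between 8.20 and 8.55 at day 3. SIGLEC1, a sialic acid receptor of tissue macrophages, read 4.79, 4.13, 4.47 and 4.73 at day 1 and 6.28, 6.94, 8.08 and 6.05 at day 3. All day 3 arrays were above day 1, and SIGLEC1 rose by 2.31 ± 0.47 (adjusted p = 0.000213). The scavenger receptor MARCO rose by 1.47 ± 0.26, the macrophage acid phosphatase ACP5 by 1.54 ± 0.23 and the protease CTSS, which processes antigens, by 1.25 ± 0.28. GPR34, a lysophospholipid receptor of macrophages and microglia that is not in the list, rose by 2.0 ± 0.20. The complement components C1QB and C1QC, made by macrophages, rose by 2.24 ± 0.63 and 1.06 ± 0.21. C1QB was uneven at day 1, at 7.26, 4.70, 5.61 and 4.47, and stood between 7.55 and 8.04 at day 3.

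In contrast, NCF1, a subunit of the oxidase that makes the oxidative burst of neutrophils, read 8.26, 8.23, 8.21 and 9.01 at day 1 and 7.13, 7.33, 8.04 and 7.14 at day 3, and fell by 1.02 ± 0.26 (adjusted p = 0.00291). SPI1, the myeloid transcription factor PU.1, fell by 0.84 ± 0.24 from 7.64–8.29 to 6.84–7.37. CYBB, the catalytic subunit of the same oxidase, showed 0.64 ± 0.25 and CD68, a lysosomal protein of macrophages, 0.68 ± 0.27, and neither passed (adjusted p = 0.0614 and 0.0545). CYBB passed without day 1 replicate 4 or day 3 replicate 1 (adjusted p = 0.027 and 0.0307), and CD68 without day 1 replicate 2 or 4 (0.0285 and 0.0334). The pattern receptor TLR2 read 7.10, 6.85, 5.76 and 5.84 at day 1 and 9.08, 9.43, 9.55 and 8.89 at day 3, a rise of 2.85 ± 0.34 (adjusted p = 2.94e-08). A dimmer TLR2 probe set showed −0.07 and was not called.

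Inflammatory mediators had 6 genes down and 1 up of 25 (24% and 4%, against 13.2% and 16.9% of all named genes, median −0.0025). Without day 1 replicate 4 or with the 8 arrays fitted alone 3 were down. NFKBIA, the inhibitor of NF-kappaB that is induced by it, read 9.93, 9.84, 9.44 and 12.55 at day 1 and 8.18, 8.48, 8.73 and 8.80 at day 3. It fell by 1.89 ± 0.41 (adjusted p = 0.000487), by 1.19 without the high day 1 replicate 4, and was not called when the 8 arrays were fitted alone (adjusted p = 0.0564). NFKB2, a subunit of NF-kappaB, fell by 0.57 ± 0.13. In the interferon and antigen presentation list 2 of 16 rose (12.5%) and 1 fell (6.25%), against 16.9% and 13.2% of all named genes. Its member IRF2, a regulator of interferon responses, rose by 1.56 ± 0.14 (adjusted p = 9.82e-11).

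Of 55 ER chaperones and unfolded protein response genes, 23 fell (41.8%, against 13.2% of all named genes), 3 rose (5.45%) and 29 were not called, with a median of −0.203. The list averaged 9.73 in uninjured flank (day 0), 9.72 at day 1, 9.36 at day 3 and 9.29 at day 7. At day 7, 30 of its genes were below and 2 above uninjured flank, against 1173 and 1072 of 8639 named genes. Day 1 against day 0 was not tested. HSPA5 (BiP), the main chaperone of the ER, read 12.06, 11.87, 11.59 and 11.37 at day 1 and 8.71, 9.44, 8.75 and 9.38 at day 3. The days were far apart and the fall was 2.65 ± 0.27 (6.29-fold, adjusted p = 8.13e-10). The ER stress proteins MANF and SDF2L1 fell by 1.16 ± 0.11 each, the disulphide reductase DNAJC10 by 1.38 ± 0.12, DERL2, of the export path for misfolded proteins, by 0.75 ± 0.07 and SEC23B of the COPII coat by 1.45 ± 0.12. The cytosolic chaperone HSP90AA1 fell by 1.73 ± 0.20 and DNAJB1, a cochaperone of HSP70, by 0.90 ± 0.16. Of 38 heat shock and oxidative stress genes 8 fell (21.1%, against 13.2% of all named genes) and 3 rose (7.89%, against 16.9%). Without day 3 replicate 4, 5 fell. Without day 1 replicate 2, day 3 replicate 1 or the arrays of other groups, 1 rose. The list's median was −0.0025.

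Of 61 genes of ribosome assembly in the nucleolus, 25 fell (41%, against 13.2% of all named genes), 3 rose (4.92%) and 33 were not called, with a median of −0.182. The list averaged 8.19 at day 0, 8.45 at day 1, 8.19 at day 3 and 8.14 at day 7. UTP18, a component of the small subunit processome, read 8.34, 8.11, 8.17 and 8.26 at day 1 and 6.97, 7.05, 7.12 and 6.94 at day 3. It fell by 1.20 ± 0.10 (adjusted p = 3.81e-11), without overlap. WDR43 of the same machinery fell by 1.24 ± 0.11, the large subunit assembly factor MRTO4 by 0.99 ± 0.10 and BYSL, needed for the small subunit, by 1.03 ± 0.12. The ribosomal proteins themselves had 10 of 56 up (17.9%, near the 16.9% of all named genes) and 1 down (1.79%), with a median of 0.0663. Those 10 became 3 without day 1 replicate 4, day 3 replicate 1 or day 3 replicate 3 and after subtraction of each array's median, 5 after quantile normalization and 1 with the 8 arrays fitted alone.

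The proteasome degrades tagged proteins, and the median rise over its measured genes was small. Of 40 measured genes 19 rose (47.5%, against 16.9% of all named genes) and 0 fell in limma (1 at an unadjusted p under 0.05 and 1 with array weights, against 13.2%), with a median of 0.212. With the 8 arrays fitted alone 11 rose. The mean over the list was 10.33, 10.35, 10.31 and 10.25 at day 1 and 10.52, 10.51, 10.52 and 10.54 at day 3. No array of day 3 reached down to day 1. PSMA4 of the core rose by 0.43 ± 0.07, PSMD11 of the lid by 0.40 ± 0.06 and the activator PSME4 by 1.52 ± 0.18.

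Of 31 genes of epidermal differentiation, 17 fell (54.8%, against 13.2% of all named genes), 3 rose (9.68%) and 11 were not called, with a median of −0.448. TGM1, the transglutaminase that crosslinks the cornified envelope in mammals, read 10.24, 9.58, 9.81 and 11.67 at day 1 and 7.53, 7.74, 8.34 and 7.71 at day 3, a fall of 2.50 ± 0.34 without overlap (adjusted p = 4.73e-07). The epithelial ETS factor EHF fell by 2.50 ± 0.36 and the desmosomal plaque protein PKP3 by 1.12 ± 0.17. The tight junction scaffold TJP1 fell by 0.58 ± 0.09 and CDH1 by 0.45 ± 0.07, with day 1 values of 12.94, 12.98, 12.89 and 12.74 and day 3 values of 12.46, 12.53, 12.39 and 12.38. OVOL2, a repressor that maintains epithelial identity, rose by 1.26 ± 0.17, and DSP was not called (0.15 ± 0.07, adjusted p = 0.119).

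EPCAM fell by 0.38 ± 0.11 and KRT18 rose by 0.40 ± 0.15, and both calls were lost without day 1 replicate 4 (adjusted p = 0.0691 and 0.187). KRT18 was also not called without day 1 replicate 1, day 3 replicate 1 or day 3 replicate 4 (0.096, 0.136 and 0.0782), and another of its probe sets showed −0.65 without a call. MALL, a protein of membrane rafts in epithelia, fell by 2.22 ± 0.31. UGDH, which makes the glucuronate unit of hyaluronan and other matrix sugars, read 13.21, 12.55, 13.10 and 13.45 at day 1 and 10.93, 11.36, 10.62 and 11.10 at day 3, a fall of 2.08 ± 0.19. GFPT2, which feeds the hexosamine path to such sugars, fell by 2.96 ± 0.37.

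Of 62 genes of actin, integrins and migration, 12 fell (19.4%, against 13.2% of all named genes) and 6 rose (9.68%, against 16.9%). The rises were 3 without day 3 replicate 2 and 2 with the 8 arrays fitted alone, and the median was −0.111. Ezrin (EZR), which ties actin to the cell membrane, read 12.88, 12.87, 12.82 and 12.82 at day 1 and 11.97, 12.11, 11.72 and 11.85 at day 3, and fell by 0.94 ± 0.11. The formin DIAPH2, an actin nucleator, fell by 1.34 ± 0.14 and PDLIM7, an actin-bound scaffold, by 1.26 ± 0.18. Vimentin (VIM), the intermediate filament of mesenchymal and migrating cells, rose by 1.14 ± 0.16, and its other probe sets rose by 1.68 and 2.49.

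Among metabolic genes, the transporters of glucose and lactate fell. SLC2A1, the glucose transporter GLUT1, read 11.60, 12.65, 10.76 and 13.56 at day 1 and 9.30, 11.09, 9.66 and 9.56 at day 3, a fall of 2.24 ± 0.56 (adjusted p = 0.00199) in which the lowest day 1 array lay below the highest day 3 array. The lactate transporter SLC16A1 fell by 2.26 ± 0.26 without overlap, while a dimmer probe set of it showed 0.26 and was not called. Hexokinase 1 (HK1) rose by 1.23 ± 0.15 and the mitophagy receptor BNIP3 by 1.35 ± 0.14. Of the glycolysis and hypoxia list 6 of 27 rose (22.2%, against 16.9% of all named genes) and 3 fell (11.1%, against 13.2%). Its median was 0.0525. ACSL4, which activates arachidonic acid, fell by 2.14 ± 0.31. The sestrins SESN1 and SESN3, stress-induced proteins that restrain the growth kinase mTORC1, rose by 2.66 ± 0.31 and 1.81 ± 0.18. SESN1 read 6.39, 6.16, 6.81 and 6.33 at day 1 and 9.38, 8.63, 9.41 and 8.89 at day 3.

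**Figure D4:**
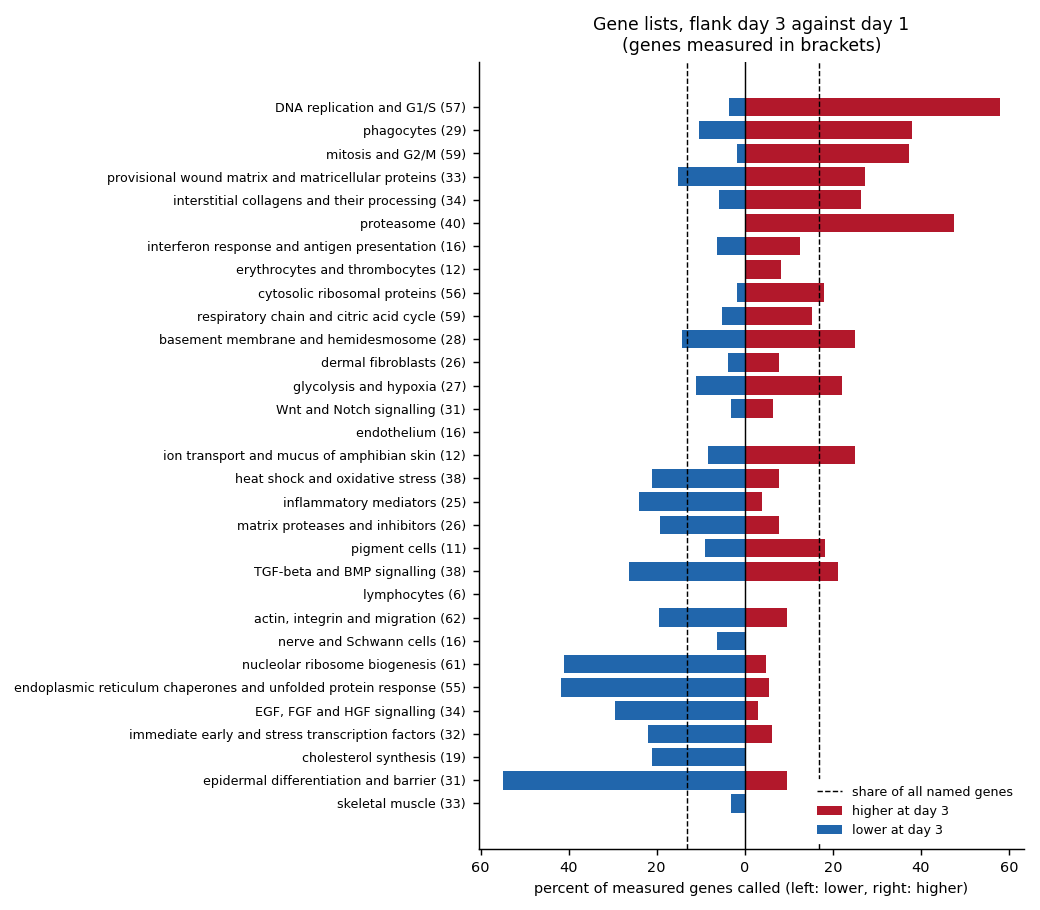
Percent of the measured genes of each list that were called higher (red, to the right) or lower (blue, to the left) at day 3, ordered by the list's median difference. Dashed lines mark the shares of all named genes, 16.9% higher and 13.2% lower, and DNA replication (57.9% higher) and epidermal differentiation (54.8% lower) reach farthest.

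In limma 0 of 16 endothelial and 0 of 6 lymphocyte genes were called, against 16.9% of all named genes higher and 13.2% lower. At an unadjusted p under 0.05 the counts were 0 and 1. Of 12 erythrocyte and thrombocyte genes 1 rose (8.33%), F13A1, a clotting transglutaminase that macrophages also make, by 1.78 ± 0.43. Without day 1 replicate 1, 3 genes of the list rose. Of 26 dermal fibroblast genes 2 rose (7.69%, against 16.9% of all named genes) and 1, FOXC1, fell (3.85%, against 13.2%). Of 33 muscle genes 1 fell (3.03%), DES (desmin, by 1.74 ± 0.35), although the list's median was −0.58. Dimmer DES probe sets showed −0.24 and −0.26 and were not called. The mean over the muscle list ranged over more than the gap between the days, at 6.02, 6.57, 6.64 and 7.62 at day 1 and 5.70, 5.75, 6.30 and 6.57 at day 3. Day 1 replicate 4 was the highest there, and the part of muscle RNA in the differences of other genes was not tested. Of 11 pigment cell genes 2 rose (18.2%, near the 16.9% of all named genes) and 1 fell (9.09%, against 13.2%). KIT, a receptor of pigment cell precursors and other stem cells, rose by 1.32 ± 0.26, and GPR143 of the melanosome fell by 0.81 ± 0.16. The other rise was in CSF1R, also a phagocyte marker, of which a dimmer probe set showed −0.03 and was not called.

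Days 0 and 7 of the flank, which the comparison did not use, show where these genes stood before and after. At day 7, 2312 probe sets were higher than in uninjured flank (11.5%) and 2437 lower (12.2%). Of the 2820 probe sets that rose from day 1 to day 3, 27.3% were above day 0 at day 7 and 12.2% below it. Of the 2425 that fell, 19.8% were below day 0 at day 7 and 13.1% above it.

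The matrix genes FN1, LAMA1 and KAZALD1 had their highest mean at day 7, a step from day 3 that was not tested. FN1 averaged 6.07 at day 0, 6.83 at day 1, 9.82 at day 3 and 11.79 at day 7, and LAMA1 4.22, 3.87, 6.49 and 8.68. KAZALD1 averaged 4.19, 5.53, 8.34 and 12.39, and at day 7 it was 8.21 ± 0.37 above uninjured flank (adjusted p = 1.54e-19). OLFM4, by comparison, averaged 3.62, 8.75, 4.34 and 3.87, and its day 7 level did not differ from day 0 by this test (0.26 ± 0.35, adjusted p = 0.692). TIMP1 averaged 6.53, 13.17, 10.13 and 8.50 and was 1.98 ± 0.42 above uninjured flank at day 7. SESN1 averaged 9.67, 6.42, 9.08 and 8.98, so that its rise followed a low level at day 1, and MKI67 followed the same course at 10.05, 8.47, 9.64 and 9.49.

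Set beside the amputated limb over the same days, the flank had much in common. In the innervated limb 26.3% of probe sets changed from day 1 to day 3, and in the denervated limb 27.3%. Of all 20035 probe sets, 3157 rose and 2113 fell in the innervated limb, and 3136 rose and 2341 fell in the denervated limb. Of the probe sets that rose in the flank, 72.1% also rose in the innervated limb (64.4% of the limb's own rises) and 72.3% in the denervated limb (65.1%). Of those that fell, 44.5% also fell in the innervated limb (51.1% of the limb's falls) and 54.8% in the denervated limb (56.7%). Across all probe sets the differences correlated at 0.615 with the innervated and 0.722 with the denervated limb, as a description over probe sets that share arrays and are not independent. Of 2657 probe sets called in all 3 series, 1766 rose in all and 880 fell in all.

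The change itself differed between flank and innervated limb for 412 probe sets (2.06%), of which 142 were more positive and 270 more negative in the flank. Against the denervated limb it differed for 294 (1.47%), with 85 more positive and 209 more negative. When only the 16 arrays of the compared groups were fitted, these counts were 221 and 136, and the second was 168 without day 3 replicate 1 and 172 without day 3 replicate 4. In both comparisons 124 probe sets were called.

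In what follows a difference of changes is the flank's change minus the limb's, given for the innervated and then the denervated limb. TLR2 and SESN1 rose more in the flank than in either limb. TLR2 averaged 7.06 ± 0.64 (SD, n = 4) at day 1 and 7.36 ± 0.23 at day 3 in the innervated limb, and 7.28 ± 0.26 and 7.63 ± 0.80 in the denervated limb, whereas the flank went from 6.39 ± 0.69 to 9.24 ± 0.31. The difference of changes was 2.54 ± 0.48 (adjusted p = 0.00168) and 2.50 ± 0.48 (adjusted p = 0.00422). For SESN1 it was 1.85 ± 0.43 and 2.05 ± 0.43. The prolyl hydroxylase P4HA2 fell by 0.72 ± 0.20 and 0.59 ± 0.20 in the limbs, and its differences of changes were 1.66 ± 0.28 and 1.54 ± 0.28 (the second with an adjusted p of 0.0549 when the 16 arrays were fitted alone). DCN, the collagen-binding proteoglycan decorin, differed by 1.21 ± 0.23 and 1.32 ± 0.23 in the same direction, with a flank difference of 0.37 ± 0.16 that was not called (0.46 and called without day 1 replicate 3).

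PMEPA1 and BMPR2 fell more in the flank than in either limb. PMEPA1 averaged 8.74 ± 0.45 at day 1 and 8.23 ± 0.29 at day 3 in the innervated limb and 8.48 ± 0.27 and 8.51 ± 0.27 in the denervated limb, against 8.45 ± 0.07 and 6.69 ± 0.25 in the flank. The differences of changes were −1.25 ± 0.28 and −1.79 ± 0.28 for PMEPA1 and −1.18 ± 0.17 and −0.84 ± 0.17 for BMPR2. ETV4, an ETS factor downstream of FGF signalling, rose by 1.23 ± 0.18 and 1.38 ± 0.18 in the limbs and not in the flank (−0.31 ± 0.18, adjusted p = 0.231). Its change differed by −1.54 ± 0.26 and −1.69 ± 0.26. MYLK, the myosin light chain kinase of smooth muscle and motile cells, rose by 1.84 ± 0.18 and 1.59 ± 0.18 in the limbs against −0.21 ± 0.18 in the flank. The FGF receptor-binding membrane protein FLRT2 differed by −1.60 ± 0.32 and −1.50 ± 0.32 (for the second, adjusted p = 0.0748 with the 16 arrays alone). FOXC1 fell more than in the denervated limb (−2.38 ± 0.59, adjusted p = 0.0305), a call lost without day 1 replicate 2 or 4 or day 3 replicate 3 or 4 (adjusted p from 0.0621 to 0.0709).

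Another group of genes had a change that passed as different from the innervated limb and not from the denervated limb. GFPT2 averaged 7.12 ± 0.72 and 7.14 ± 0.11 at days 1 and 3 in the innervated limb, but 7.53 ± 0.29 and 4.74 ± 0.46 in the denervated limb and 8.02 ± 0.79 and 5.07 ± 0.30 in the flank. The difference of changes was −2.97 ± 0.53 for the innervated limb (adjusted p = 0.000902) and −0.16 ± 0.53 for the denervated limb (adjusted p = 0.948). TGM1 gave −2.70 ± 0.49 and −0.77 ± 0.49, UGDH −1.57 ± 0.28 and −0.28 ± 0.28, and MALL −1.94 ± 0.44 and 0.12 ± 0.44, with the second value of each not called. EHF differed by −2.11 ± 0.51 from the innervated limb (adjusted p = 0.0181, and 0.124 when the 16 arrays were fitted alone). From the innervated limb MMP28 differed by −3.49 ± 0.80, PDLIM7 by −1.73 ± 0.25, HMGA2 by −1.53 ± 0.31 and DNAJC10 by −1.02 ± 0.17. HK1 fell in the innervated limb by 0.47 ± 0.15, with a difference of changes from that limb of 1.70 ± 0.21. For EHF, MMP28, PDLIM7, HMGA2, DNAJC10 and HK1, not passing against the denervated limb does not show a smaller difference there. Over the epidermal differentiation list 5 genes fell and 6 rose in the innervated limb (median 0.01) and 15 fell and 1 rose in the denervated limb (median −0.398). Of 8639 named genes, 964 fell and 1614 rose in the innervated limb, and 1058 fell and 1674 rose in the denervated limb. In 4 of the list's 31 genes the change was more negative in the flank than in the innervated limb, against 128 of 8639 named genes.

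**Figure D5:**
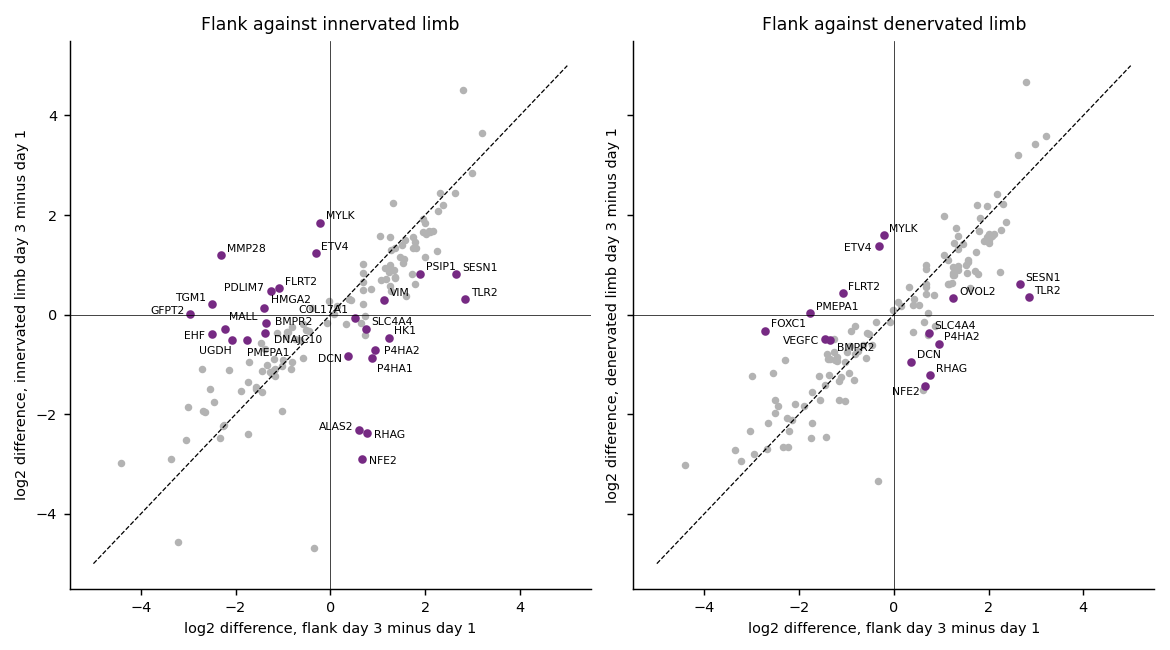
Log2 difference of day 3 minus day 1 in the flank (horizontal) and in the innervated (left) or denervated limb (right, vertical) for the genes described here, with the dashed line of equal change. Purple points have names and are genes whose change differed between the series, such as TLR2 and PMEPA1, and grey points did not pass that test.

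Red cell genes also changed differently in flank and limb. RHAG, a membrane protein of red cells, averaged 9.09 ± 0.82 at day 1 and 6.72 ± 0.67 at day 3 in the innervated limb and 8.38 ± 0.25 and 7.16 ± 0.30 in the denervated limb, against 7.17 ± 0.73 and 7.94 ± 0.62 in the flank. Of the 12 genes of the list 9 fell in the innervated limb, 7 in the denervated limb and 0 in the flank (0 also at an unadjusted p under 0.05 in limma). Of 8639 named genes, 964 fell in the innervated limb, 1058 in the denervated limb and 1139 in the flank. RHAG and NFE2 passed as rises in the flank without day 1 replicate 1 (1.11 and 1.05, adjusted p = 0.0269 and 0.0386). The change of RHAG differed by 3.14 ± 0.52 from the innervated limb, that of NFE2, a transcription factor of red cells and platelets, by 3.57 ± 0.54 and that of ALAS2, which starts haem synthesis in red cells, by 2.94 ± 0.62 (adjusted p = 0.00519, and 0.0729 with the 16 arrays alone). Against the denervated limb RHAG and NFE2 differed by 1.99 ± 0.52 and 2.09 ± 0.54, but each call was lost without any of day 1 replicates 2, 3 and 4 and day 3 replicates 1, 2 and 4 (adjusted p from 0.0676 to 0.103 and from 0.0547 to 0.0943). The muscle list had a median of −2.69 in the innervated and −1.36 in the denervated limb, against −0.58 in the flank. The part of red cell or muscle RNA in the other differences between flank and limb was not tested.

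Genes of the cell cycle lists rose in the limbs too. In the innervated limb 38 of 59 mitosis genes rose (median 0.922) and 18 of 57 DNA replication genes (0.292), and in the denervated limb 17 (0.438) and 16 (0.133). Of 8639 named genes, 1614 rose and 964 fell in the innervated limb, and 1674 rose and 1058 fell in the denervated limb. The interstitial collagen list had 9 rises and 2 falls in the flank. It had 0 and 5 in the innervated limb (median −0.219, and 2 rises at an unadjusted p under 0.05 in limma). In the denervated limb it had 2 and 3 (−0.045). Of its genes 3 and 2 had a more positive change in the flank, against 75 and 41 of 8639 named genes. The dermal fibroblast list averaged 7.05 at day 1 (arrays from 6.13 to 7.69) and 6.6 at day 3 in the innervated limb. Its means were 6.72 and 6.68 in the denervated limb and 6.02 and 6.09 in the flank. The part of dermal RNA in these and other differences between flank and limb was not tested.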

How the data were processed

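The values are log2 expression levels deposited by the authors, with 2 decimals. The scale was inferred from the range of values. Medians of single arrays ran from 5.61 to 5.73. RMA and limma appear in the submitters' processing notes with neither version nor role. Per the labels' protocols, total RNA was isolated with Trizol and columns and labelled as biotinylated cRNA for an Affymetrix array. No normalization, floor or filter was added. Precision depends on the 4 arrays of a group. Over all probe sets the SE of a difference had a median of 0.123.

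Tests used limma 3.58.1 (R 4.3.3) on 20035 probe sets, with 45 controls left out. The model held 11 group means over all 44 arrays, with empirical Bayes moderation and two-sided p-values adjusted by Benjamini-Hochberg over all probe sets. The fit was tested on simulated data. A gene is represented by the probe set with the highest mean. Dimmer probe sets did not all pass for CTSS, ITGB5, CDH1, TIMP1, TLR2, SALL4, BNIP3 and THBS2, among others. The same holds for C1QB, NPY, HS3ST1, UGDH, POLA2, NCAPD3 and SMAD4. Platform annotation gave 10951 probe sets 1 symbol and 0 several, and 9084 were unnamed. Of 1740 genes with several probe sets, 22 had calls in opposite directions.

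Members and gene lists were chosen with earlier results of these data known. Named genes were the 25 largest non-overlapping changes each way, up to 6 members of each list by adjusted p, list members that did not pass, cell type markers, and the 10 largest differences of changes each way. Alternatives were the replicate block, scaling, a filter on dim probe sets, array weights, the variance prior, the compared arrays alone and leaving out each array. No scan date or batch was given, so none was examined.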

Additional observations from a re-analysis of the deposited data

Results flagged for a closer look

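In 334 groups of 4 arrays, taken for the genes and lists described here, the highest or lowest array was set against the rest of its group, and in 23 it stood apart by Dixon's 95% criterion, which chance meets in about 5% of groups. Of these, 11 belonged to day 1 replicate 4. That array was high for PLA2G7 (10.03), EHF (9.54), NCF1 (9.01), NFKBIA (12.55), EGFR (10.28), PDLIM7 (10.91), HSP90AA1 (10.06) and the mean of inflammatory mediators (6.45). It was low for DERL2 (10.74) and for the means of ER chaperones (9.66) and nucleolar genes (8.33). Day 1 replicate 1 was low for TIMP1 (12.95) and Wnt and Notch signalling (6.36) and high for EREG (9.99), and day 1 replicate 3 was low for CDCA8 (6.81). Day 3 replicate 4 was high for the mitosis mean (7.77) and low for SKIL (7.58), EPCAM (13.03) and Wnt and Notch signalling (6.32). Day 3 replicate 3 was high for phagocytes (8.55) and low for dermal fibroblasts (5.91), and day 3 replicate 1 was low for COL3A1 (13.55) and HSP90AA1 (7.85).

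For 27 of the genes described, the change from day 1 to day 3 differed between flank and innervated limb, and for 15 between flank and denervated limb, each by limma's test of the difference of changes (flank minus limb). The flank's change was the more positive for both limbs in TLR2 (2.54 and 2.5), SESN1 (1.85 and 2.05), P4HA2 (1.66 and 1.54), RHAG (3.14 and 1.99), NFE2 (3.57 and 2.09), DCN (1.21 and 1.32) and SLC4A4 (1.04 and 1.12). It was the more negative for both in BMPR2 (−1.18 and −0.84), PMEPA1 (−1.25 and −1.79), MYLK (−2.05 and −1.8), ETV4 (−1.54 and −1.69) and FLRT2 (−1.6 and −1.5). Against the innervated limb alone the difference passed as positive for PSIP1 (1.08), P4HA1 (1.74), COL17A1 (0.6), HK1 (1.7), VIM (0.84) and ALAS2 (2.94). It passed there as negative for GFPT2 (−2.97), EHF (−2.11), TGM1 (−2.7), MMP28 (−3.49), MALL (−1.94), UGDH (−1.57), HMGA2 (−1.53), PDLIM7 (−1.73) and DNAJC10 (−1.02). Against the denervated limb alone it passed for FOXC1 (−2.38), VEGFC (−0.98) and OVOL2 (0.93). Whether the innervated and denervated limbs differ from each other in these genes was not tested.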

How the results depend on the processing

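The count of 5245 probe sets called between day 1 and day 3 was 5286 with the replicate block (5063 of them shared), 5185 without the dimmest 25% of probe sets, 5134 after subtraction of array medians, 5163 after quantile normalization, 5384 with array weights, 5212 with an intensity trend and robust prior, 3827 with the 8 arrays alone, and 4511 to 4971 with an array left out. Same-numbered samples did not deviate together (correlations 0.07, 0.02, −0.03 and 0.13). This gave no sign of pairing, but so few correlations cannot exclude it, and the labels do not say. With the block the differences of changes gave 445 and 255 calls and day 7 against day 0 gave 4781. The difference of changes from the innervated limb had 412 calls, 221 with the compared arrays alone and 319 to 441 with an array left out. That from the denervated limb had 294, 136 with the compared arrays alone and 168 to 333 with an array left out. Day 7 against day 0 had 4749 calls, and 4118 to 4507 with an array left out. The cause of these shifts was not tested beyond the smaller number of arrays. Of 157 gene results, 142 were called, 20 changed their call under at least 1 of 15 alternatives and 0 reversed direction. Of 31 list medians 9 moved by more than the spread between arrays under at least 1 alternative. The lists of Wnt and Notch signalling (0.03 to −0.0338 without dim probe sets and −0.0352 with array weights), of matrix proteases (−0.0675 to 0.0175) and of the endothelium (0.0288 to −0.045) changed sign. Levels near the low end of the deposited values limit what can be said of dim genes.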

Other observations

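The bicarbonate cotransporter SLC4A4 read 6.28, 6.31, 6.79 and 6.65 at day 1 and 7.06, 6.92, 7.37 and 7.69 at day 3, a rise of 0.75 ± 0.18 without overlap (adjusted p = 0.00119, limma). The water and glycerol channel AQP3 fell by 0.65 ± 0.13, from 5.81–6.06 to 5.12–5.60. Of 12 measured genes of skin ion transport and mucus 3 rose (25%) and 1 fell (8.33%), against 16.9% and 13.2% of all named genes. In cholesterol synthesis 0 of 19 genes were higher (0 also at an unadjusted p under 0.05 in limma, against 16.9% of all named genes). Lower were 4 genes (21.1%, against 13.2%), with a list median of −0.297. Among these HMGCS1, an early enzyme of the pathway, fell by 1.44 ± 0.42, a call lost without day 1 replicate 4 (−1.1, adjusted p = 0.0573).

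In Wnt and Notch signalling 2 of 31 genes rose (6.45%) and 1 fell (3.23%), against 16.9% and 13.2% of all named genes. Without day 1 replicate 4 or with array weights 4 rose. The Notch ligand DLL1 rose by 0.85 ± 0.20 and APC, a brake on Wnt signalling, by 0.69 ± 0.13. NUMB, an inhibitor of Notch, fell by 0.52 ± 0.13, and by 0.338 without day 1 replicate 4. DLL1 and NUMB were not called when the 8 arrays were fitted alone (adjusted p = 0.067 and 0.0597). Of the respiratory chain and citric acid cycle genes 9 of 59 rose (15.3%, near the 16.9% of all named genes) and 3 fell (5.08%, against 13.2%). Without day 1 replicate 1 these counts were 5 and 1, with the 8 arrays fitted alone 4 and 1, and 1 fell without day 1 replicate 2, day 3 replicate 2 or day 3 replicate 3. CYCS, the electron carrier cytochrome c, was among those that fell (by 0.82 ± 0.17).

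Of the 9084 probe sets with no gene symbol, 1141 were higher and 1096 lower at day 3. Over all 20035 probe sets these counts were 2820 (14.1%) and 2425 (12.1%). The probe set axo31558-f_at read 5.82, 5.71, 5.64 and 6.77 at day 1 and 9.49, 9.83, 9.87 and 10.29 at day 3, a rise of 3.88 ± 0.34 (adjusted p = 4.91e-11, limma). The probe set axo30558-f_at was uneven at day 1, at 5.66, 9.54, 11.21 and 6.99. At day 3 it read 4.33, 3.03, 3.25 and 3.06, near the low end of the deposited values, a fall of 4.93 ± 0.99.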
